A study of Mus musculus with 12 samples.

Results

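The cytosolic ribosome of mammals is built from 4 ribosomal RNAs and a fixed set of ribosomal proteins, most of them encoded by a single active gene. Proteins of the large subunit (Rpl, with the acidic stalk proteins Rplp0, Rplp1 and Rplp2) surround the site where peptide bonds form, and proteins of the small subunit (Rps and Rpsa) hold the mRNA. Their mRNAs begin with a pyrimidine tract, the 5′ terminal oligopyrimidine or TOP motif, through which growth signals control their translation. Germ cells are known for a paralogue of a large subunit protein, Rpl39l, which is made in the testis beside X-linked Rpl39.

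The genes described here are the protein-coding genes of the GENCODE M21 annotation with a symbol of the form Rpl or Rps followed by a number, together with Rplp0, Rplp1, Rplp2 and Rpsa and without Rpl10l. The rule found 79 of the 35975 genes in the files, 48 of the large and 31 of the small subunit, and it used no measured value. All 79 passed the filter on low counts that left 16178 genes for testing. They lay on 18 autosomes and the X chromosome, 14 of them on chromosome 7 and 4 on the X. Ribosomal protein genes with other kinds of symbol, such as Rps3a1, Fau and Rack1, fell outside the rule and are given separately.

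The 12 libraries were made from primordial germ cell-like cells (PGCLCs) of the mouse, a model of the embryo's earliest germ cells that is derived in vitro from embryonic stem cells. The stem cells were E14TG2a, either wild type (WT) or labelled TKO, known from the study to lack Dnmt1, Dnmt3a and Dnmt3b, and all had been kept in 2i with vitamin C. Cells were primed to epiblast-like cells for 40, 48 or 96 h and then kept as aggregates for 4 days in LIF, SCF, EGF, BMP4 and BMP8. Each of the 4 groups had 3 biological replicates: WT_40h, wild type after 40 h of priming, and TKO_40h, TKO_48h and TKO_96h, the knockout line after 40, 48 and 96 h. WT was thus present at 1 priming time, the titles name no separate clones, and whatever else separates the WT line from the TKO line cannot be told apart from the knockouts. The labels describe dissociation for flow cytometry and do not say whether the RNA came from sorted cells or whole aggregates. Total RNA was sequenced with a Pico input kit, so that the libraries were not limited to polyadenylated RNA.

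The libraries held 6570180 to 9114128 estimated counts. Dnmt1 was at 426 to 450 CPM (counts per 1000000, with library sizes scaled by TMM) in WT_40h and at 64.9 to 152 CPM in the TKO libraries, Dnmt3a at 358 to 436 against 25.4 to 73.1 CPM, and Dnmt3b at 157 to 215 against 13.4 to 55.4 CPM. Of 7 germ cell markers, the receptor gene Kit was highest (55.4 to 127 CPM), followed by Tfap2c (22 to 74.3 CPM) and Dppa3 (12.4 to 60.6 CPM), with Nanos3 at 0.528 to 4.68 CPM. Their sum was 198 to 235 CPM in the WT_40h libraries, 194 to 205 CPM after 40 h, 261 to 269 CPM after 48 h and 151 to 168 CPM after 96 h of priming in the TKO line. Markers of other cell types were present as well. Summed over 4 genes each, neural markers were at 72.3 to 137 CPM, highest in TKO_96h (123 to 137). Endothelial markers were at 63.3 to 90 CPM, mostly from Pecam1 (54 to 82.8). Cdh5, Kdr and Sox18 were at no more than 4.28, 4.29 and 12.7 CPM. Endoderm markers were at 13.7 to 17.5 CPM in WT_40h and 21.3 to 25.4 in TKO_40h. In TKO_48h they were at 21.4 to 28.9 and in TKO_96h at 10.4 to 21.4 CPM. Mesoderm markers were at 3.32 to 3.9, 10.2 to 14.5, 11.3 to 16.3 and 3.93 to 6.02 CPM in the same order. Trophoblast markers were at 9.28 to 27.6 CPM over all libraries. Within these lists Tfap2a, Gata6 and Hand1 reached 17.9, 13.9 and 13.7 CPM, while T, Foxa2 and Cdx2 were at or near 0. Whether these markers came from other types of cell, and the part of such cells in the results below, was not tested. In cultures of mixed cells, fewer cells of a type and less RNA per cell cannot be told apart.

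Libraries that stood apart set much of the spread in ribosomal protein mRNA and are therefore described first. The 79 genes together took 4.43, 4.24 and 4.42% of the counts in WT_40h replicates 1 to 3 and 4.74, 4.52 and 4.6% in TKO_40h. In TKO_48h they took 5.29, 4.22 and 4.9%, and in TKO_96h 5.9, 4.18 and 4.16%. Replicate 1 of TKO_96h was thus far above the other two, and the TKO_48h libraries were spread on both sides of TKO_40h, whereas WT_40h and TKO_40h were tight and did not overlap.

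**Figure D1:**
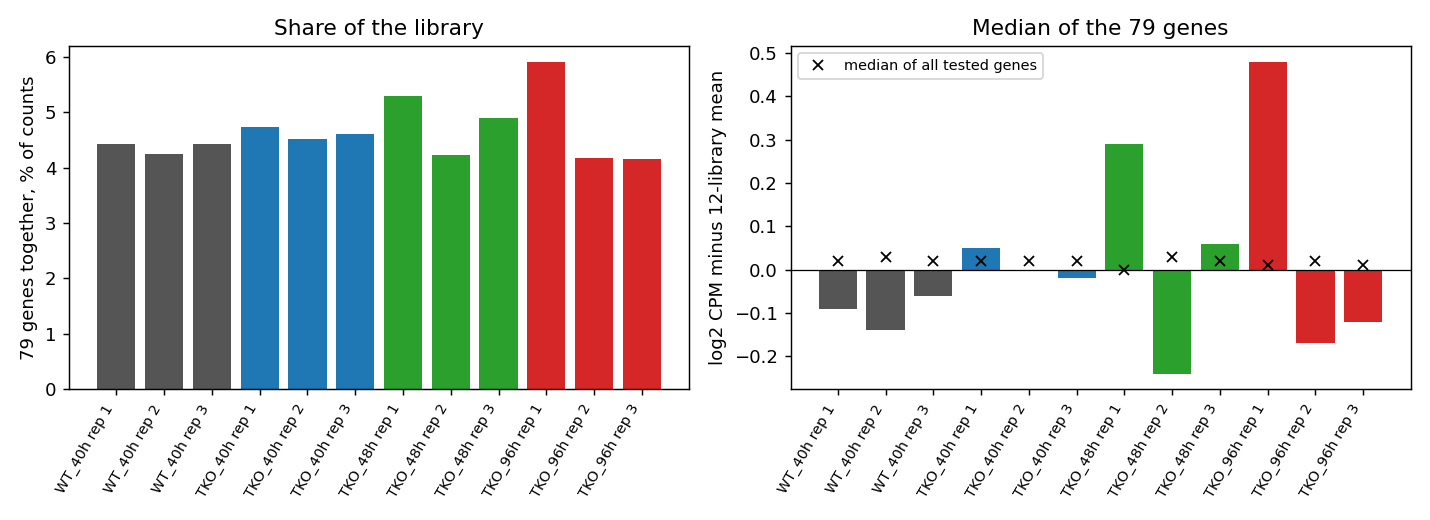
Share of each library's counts taken by the 79 ribosomal protein genes (left, percent) and the median over the 79 genes of log2 CPM minus each gene's mean over the 12 libraries (right; crosses, the same median over all genes tested). Bars are single libraries, coloured by group. TKO_96h replicate 1 (5.9%) and TKO_48h replicate 1 (5.29%) stand above all others, while the medians of all genes stay between 0 and 0.03.

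Within TKO_96h, replicate 1 was the highest library for 78 of the 79 genes, while it was the highest for 35.9% of all genes tested. Replicate 1 of TKO_48h was the highest of its group for 76 of the 79 (35.5% of all genes), and replicate 2 of TKO_48h the lowest for 74 (33% of all genes). The median log2 SD between replicates over the 79 genes was 0.07 in WT_40h and 0.08 in TKO_40h, against 0.23 and 0.22 over all genes tested, but 0.26 in TKO_48h and 0.36 in TKO_96h, against 0.3 and 0.26. Their spread was thus below that of all genes tested at 40 h of priming, and near or above it at 48 and 96 h. The 79 genes were far more abundant than most genes tested, and counting noise is larger at low counts. No set of genes of like abundance was compared.

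Other short mRNAs moved with these libraries. In TKO_96h replicate 1, measured against the mean of replicates 2 and 3, the 25 ribosomal protein genes of at most 400 bases effective length were higher by a median log2 difference of 0.68, the 39 of 400 to 800 bases by 0.61 and the 15 of 800 to 1600 bases by 0.44. Among other protein-coding genes over 5 CPM the same difference was 0.69 for the 126 of at most 400 bases, 0.38 for 400 to 800, 0.1 for 800 to 1600, -0.04 for 1600 to 3200 and -0.16 for longer ones. The same order held in TKO_48h replicate 1, with 0.4, 0.35 and 0.34 for the ribosomal protein genes and 0.4 to -0.04 from the shortest to the longest other genes. In TKO_48h replicate 2 it was turned round, with -0.4, -0.42 and -0.37 for the ribosomal protein genes and -0.43 to 0.08 for the others. Lars2 and Ccnb1ip1 held 3.06% of the counts in TKO_96h replicate 1, against 1.3 to 1.93% in the other libraries, and the part of transcript length or library quality in the results was not tested.

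**Figure D2:**
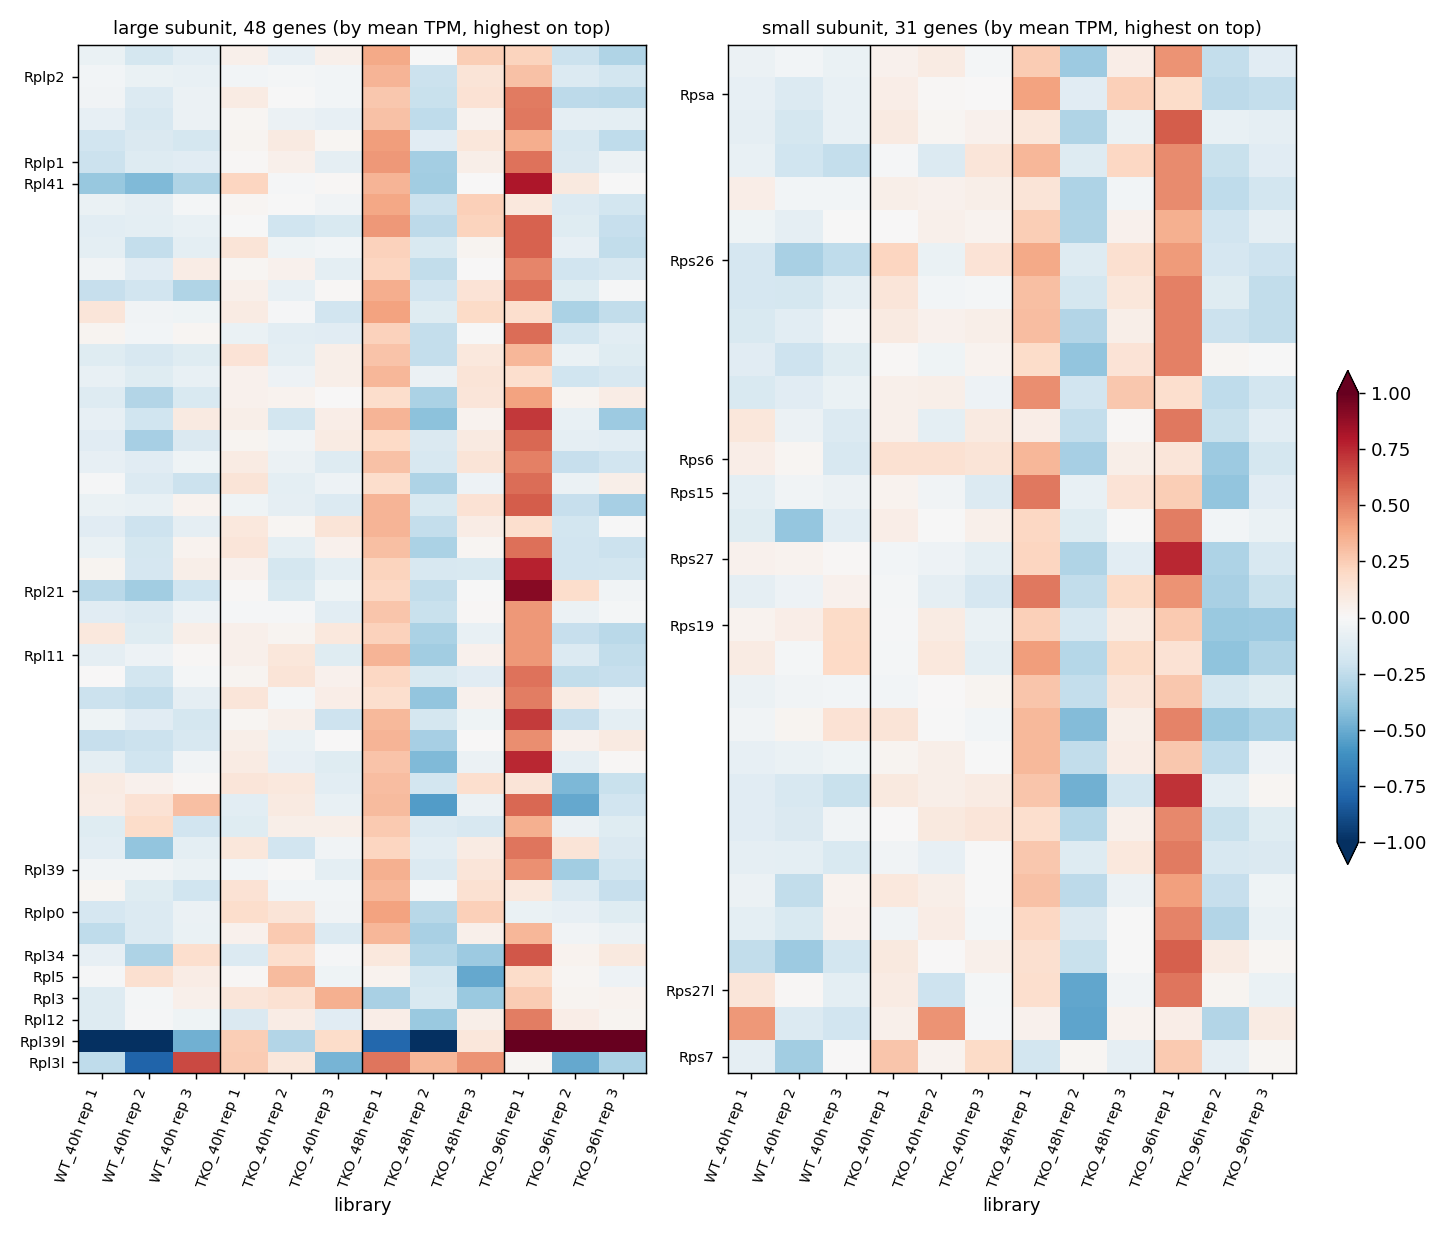
Level of each ribosomal protein gene in each library as log2(CPM + 0.5) minus the gene's mean over the 12 libraries, large subunit left and small subunit right, ordered by mean TPM, with some of the genes described in the text named. Columns are libraries, and black lines part WT_40h, TKO_40h, TKO_48h and TKO_96h. The columns of TKO_96h replicate 1 and TKO_48h replicate 1 are red for nearly every gene, and the row of Rpl39l is high in all 3 TKO_96h libraries.

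The genes were not equally abundant. On the deposited TPM (transcripts per 1000000, which corrects for length), averaged over the 12 libraries, the stalk gene Rplp2 at 2255, Rpl26 at 2133 and Rpl19 at 2057 TPM were among the highest, and the median gene was at 538 TPM, against 5.46 TPM over all genes tested. The lowest were Rpl3l, known from heart and skeletal muscle, at 2.38 TPM, Rpl39l at 9.66 TPM and Rpl12, a protein at the base of the stalk, at 48.8 TPM. The order was stable from library to library, with Spearman correlations across the 79 genes of at least 0.974 between any 2 libraries. These share the reference and the base composition of the genes, and genes are not independent replicates. TPM as such moved between libraries, since a pair of pseudogenes, Gm12895 and Gm12896, held 28.2 to 43.9% of it. Genes were therefore ranked by TPM and libraries compared by CPM, with shares of TPM as an alternative only.

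Copies elsewhere in the genome bear on this order. Of the 31-base words in the main transcript of a gene, a median of 63.4% were also found in a transcript of another gene, and for 57 of the 79 genes more than 50% were. Rpl3l, Rpl39l and Rps3 were among the few that shared less than 10% of their words. The 955 pseudogenes that shared at least 10% of their words with 1 of the genes, tied to 75 of them, held 16.1% of the counts of genes and pseudogenes together. For 47 genes the pseudogenes held less than 1%, and for 9 they held more than 50%.

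Those 9 were among the genes that seemed scarce. Rpl5 had on average 701 counts per library and its pseudogenes 11265, or 94.1% of the total. Nearly all lay on 1 pseudogene, Gm15500 on chromosome 7 (114705217 to 114706235), at 1263 to 1874 CPM. Of the words of Gm15500, 39.7% were shared with the main transcript of Rpl5. That transcript held 36.3% of the TPM of Rpl5, and its other transcripts were not compared. Rpl3, a core protein near the peptidyl transferase centre, had 884 counts against 9780 (91.7%), and Rpl12 had 529 against 4382 (89.2%). The share was 84.8% for Rpl34, 80.2% for Rps7, 73.5% for Rps23, 71.7% for Rps13, 56.8% for Rpl27a and 55.5% for Rpl27. With pseudogene TPM added, Rpl5 moved from rank 75 to 21, Rpl34 from 74 to 22, Rpl12 from 77 to 31 and Rpl3 from 76 to 33. Rpl39l and Rpl3l stayed at ranks 78 and 79 with nothing to add. Whether reads came from gene or pseudogene cannot be told from the deposited tables.

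**Figure D3:**
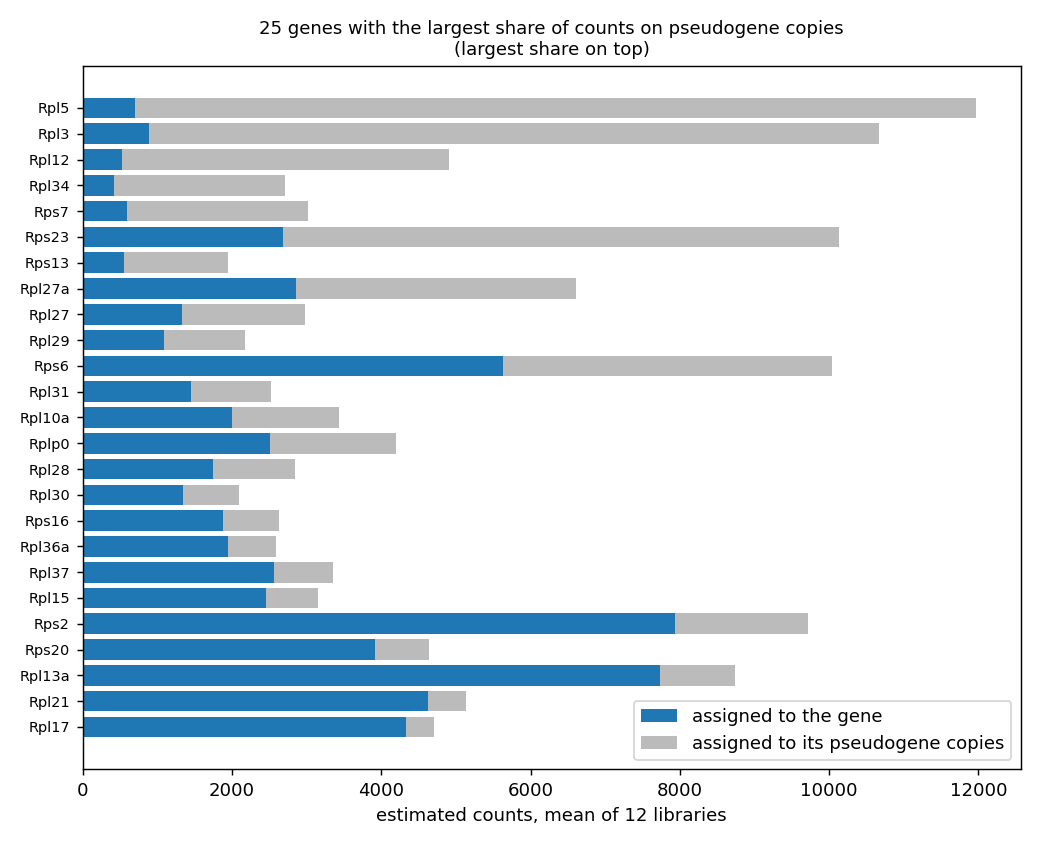
Mean estimated counts per library assigned to the gene (blue) and to the pseudogenes that share its sequence (grey), for the 25 ribosomal protein genes with the largest share on pseudogenes. Rpl5 at the top has 701 counts of its own and 11265 on pseudogenes.

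Within a gene, counts also fell on transcripts that make no protein. Transcripts annotated as protein coding took 86.7 to 88.6% of the counts of the 79 genes, targets of nonsense-mediated decay 4.6 to 6.2%, and transcripts with a retained intron 2.8 to 4.3%. The median gene had 96.7% of its counts on coding transcripts. Only 5 genes had less than 50%, namely Rpl3 (5.5%), Rpl12 (13.9%), Rpsa (33.7%), Rpl23 (41%) and Rpl5 (46.5%).

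A pyrimidine tract at the start was visible in the promoter sequences, shown here since it is the feature these mRNAs are known to share. RefSeq promoter entries on GRCm38.p6, reaching from 250 bases before to 50 bases after an annotated start, were found for 59 of the 79 genes (71 entries). In 29 of the 71 entries (40.8%) a run of at least 8 C or T bases on the sense strand touched the 10 bases on either side of the start, against 13.7% of 32851 entries of all genes. The letters CCGGAAG, the core that ETS family factors are known to bind, searched on both strands, were in 26 of the 71 entries (36.6%) against 8.86% of all entries. The reverse of this motif, CTTCCGG, can overlap a run of C and T. The following windows run 5′ to 3′ from 15 bases before the annotated start to 10 bases from it on, with the longest run of C or T that touches the 10 bases on either side of the start in capitals. Runs that reach beyond the window are cut at its edge.
Rplp2, chromosome 7, plus strand, 141447636 to 141447660: tgcgtcagcgTCTTCCTTTCgccgc
Rps6, chromosome 4, minus strand, 86857358 to 86857382: aagcggaagtcgggCCTCTTTTTCg
Rps27, chromosome 3, minus strand, 90213639 to 90213663: atttccgctttcgCTCCTTTCCggc
Rps26, chromosome 10, minus strand, 128626497 to 128626521: gtcgggcaagccgccggaTCCTCTT
Rpl41, chromosome 10, minus strand, 128549159 to 128549183: cacacgggccggCTCggaagtgacg
Rpl39l, chromosome 16, plus strand, 10170213 to 10170237: ctcccaggCCTTTCCggatttccgg
Rplp2 and Rps6 carried runs of 10 bases, Rps27 and Rps26 runs of 9, Rpl39l a run of 7 and Rpl41, at its annotated start, a run of 3.

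The first comparison, TKO_40h with WT_40h, asks what differs between the genotypes after equal priming. No ribosomal protein gene was called at an adjusted p below 0.05 (edgeR quasi-likelihood test, Benjamini-Hochberg over 16178 genes), while 1.62% of all genes tested were called higher and 1.48% lower. At an unadjusted p under 0.05 there were 6, all higher (7.59% of the 79, against 15.6% of all genes tested in either direction), and DESeq2 also called 0. The differences were small and mostly of the same sign, with 66 of 79 log2 fold changes above 0, a median of 0.09, and 8078 of 16178 above 0 over all genes. In 37 of the 79 genes (46.8%) every TKO_40h library was above every WT_40h library, as in 13.1% of all genes tested, and in 2 of them, Rpl22 and Rps27, every one was below, as in 12.6%. The summed share of counts was higher by 0.25 percentage points (exact two-sided permutation test, p = 0.1, adjusted over 4 comparisons 0.4, 0.10 being the smallest p that 3 against 3 allow).

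The genes nearest to a call were Rpl39l, Rpl41, Rps7 and Rps26. Rpl41, which encodes the smallest ribosomal protein, was at 655, 629 and 693 CPM in WT_40h and at 990, 845 and 862 CPM in TKO_40h, without overlap. Its log2 fold change was 0.45 ± 0.17 (SE, edgeR adjusted p = 0.2). Rps26, near the exit of the mRNA channel, was at 655, 588 and 619 against 856, 705 and 811 CPM (0.35 ± 0.15, edgeR adjusted p = 0.25). Rps7 was at 75.3, 63 and 80.4 against 97.6, 82.3 and 91.7 CPM (0.31 ± 0.13, edgeR adjusted p = 0.22), with most of the counts of its sequence on pseudogenes. None of the 3 passed the test over all groups. The spread in that fit came from all 12 libraries, and a fit to only the 2 groups, which were the tightest, called 12 genes, all higher, where 4.66% of all genes tested were called higher, among them Rpl41 (adjusted p = 0.00014), Rps26 (0.0024) and Rpl23a (0.0056), but not Rps7 or Rpl39l.

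Priming TKO cells for 48 h rather than 40 h left 1 gene called, lower, while 2.57% of all genes tested were called higher and 2.92% lower. The median log2 fold change of the 79 genes was 0.03, with 45 above 0. Groups did not overlap for Rpl3l (above, as in 12% of all genes) and for Rpl3 and Rps7 (below, also as in 12%). The summed share was 4.8 ± 0.55% in TKO_48h and 4.62 ± 0.11% in TKO_40h (mean ± SD, n = 3, exact permutation p = 0.6). Its sign turned without TKO_48h replicate 1, to a difference of -0.06 points, and the median log2 fold change to -0.1.

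The gene called was Rpl3 (chromosome 15, 80077791 to 80091868). It was at 128, 131 and 151 CPM in TKO_40h, at 94.3, 106 and 90.8 CPM in TKO_48h, at 141, 120 and 121 CPM in TKO_96h and at 108, 116 and 122 CPM in WT_40h. All 3 TKO_48h libraries were below every other library, with a log2 fold change of -0.49 ± 0.11 against TKO_40h (edgeR adjusted p = 0.014). These counts were mostly not on mRNA that codes for the protein: transcripts with a retained intron held 855, 879 and 1159 counts in TKO_40h and 365, 725 and 471 in TKO_48h, and coding transcripts 0, 23 and 17 against 149, 28 and 140. The pseudogene Rpl3-ps1 on the X chromosome (13202571 to 13203780) shared 92.4% of its own words with Rpl3. Of the words in the main transcript of Rpl3, 61.1% occurred in pseudogenes. Rpl3-ps1 was at 1352, 1318 and 1320 CPM in TKO_40h and 1720, 1261 and 1529 CPM in TKO_48h (0.18 ± 0.11, edgeR adjusted p = 0.41). With pseudogenes pooled the log2 fold change of Rpl3 was 0.13 (adjusted p = 0.59), so that neither the call nor the direction held with the pseudogene counts added. The call was also lost without TKO_40h replicate 3 (-0.41, edgeR adjusted p = 0.093) and without TKO_48h replicate 3 (-0.44, 0.074).

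**Figure D4:**
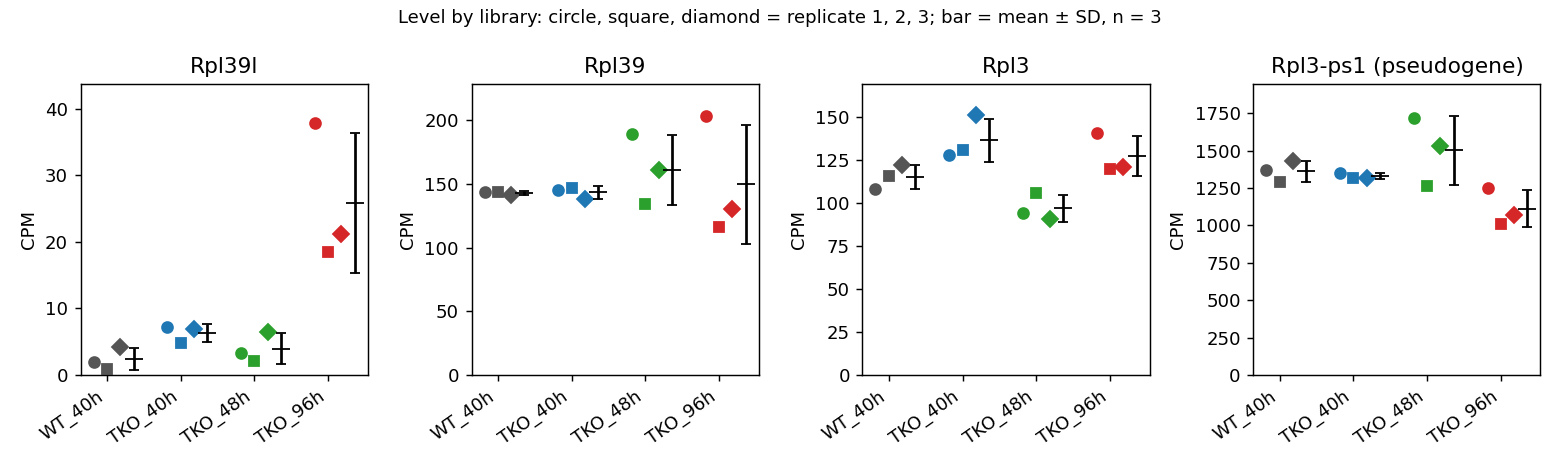
CPM of Rpl39l, Rpl39, Rpl3 and the pseudogene Rpl3-ps1 in every library (circles, squares and diamonds are replicates 1, 2 and 3 of a group; horizontal marks with bars are mean ± SD, n = 3). Each panel has its own axis from 0. Rpl39l lies at 18.5 to 37.9 CPM in TKO_96h and at most at 7.19 CPM elsewhere, and Rpl3 is lowest in TKO_48h, where Rpl3-ps1 is not.

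After 96 h of priming, 1 ribosomal protein gene was called against TKO_40h and 2 against TKO_48h. Against TKO_40h, where 4.94% of all genes tested were called higher and 7.2% lower, Rpl39l was called higher. Against TKO_48h, where 8.82% were called higher and 10.7% lower, Rpl39l and Rpl3 were called higher. The difference in Rpl3 was 0.39 ± 0.11 (edgeR adjusted p = 0.018), but -0.37 with its pseudogenes pooled (adjusted p = 0.02), and it was not called without TKO_48h replicate 3 (0.34, 0.082) or without TKO_96h replicate 1 (0.31, 0.086). Over the 79 genes the median log2 fold change was 0.06 in both, with 52 and 49 above 0. Groups did not overlap for Rpl39l (above) and for Rplp0 and Rps6 (below) against TKO_40h, where 15.2% of all genes tested lay above and 16.9% below. Against TKO_48h they did not overlap for Rpl39l and Rpl3 (above) and for Rpl3l (below), where the shares were 15.6 and 17.1%. These 2 comparisons share the TKO_96h libraries.

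Rpl39l (chromosome 16, 10170226 to 10174911, plus strand) had the largest difference of the 79 genes in each of the 4 comparisons. It was at 2, 0.934 and 4.15 CPM in WT_40h, at 7.19, 4.79 and 6.87 CPM in TKO_40h, at 3.26, 2.14 and 6.53 CPM in TKO_48h and at 37.9, 18.5 and 21.2 CPM in TKO_96h. Every TKO_96h library was above all 9 others, and TKO_40h was above WT_40h without overlap. The counts behind these values were 18, 7 and 30 in WT_40h and 251, 132 and 161 in TKO_96h, all on protein-coding transcripts. Its log2 fold change was 2.04 ± 0.43 against TKO_40h (edgeR adjusted p = 0.0034) and 2.69 ± 0.45 against TKO_48h (edgeR adjusted p = 0.00028). Between TKO_40h and WT_40h it was 1.42 ± 0.47 (edgeR adjusted p = 0.12), from 1.04 without WT_40h replicate 2 to 2.07 without WT_40h replicate 3 (adjusted p = 0.38 and 0.058). That difference was called with no filter on low counts (adjusted p = 0.013) and with a replicate block (0.047). Between TKO_48h and TKO_40h it was -0.66 ± 0.45 (edgeR adjusted p = 0.48). Both calls at 96 h held under all 24 alternative settings each, the weakest being 1.66 without TKO_96h replicate 1 (edgeR adjusted p = 0.039) against TKO_40h. Only 2.2% of its words were shared with another gene.

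X-linked Rpl39 (37082520 to 37085402) lines the exit tunnel of the ribosome, and Rpl39l is its paralogue. Rpl39 was at 144, 144 and 141 CPM in WT_40h, 145, 147 and 138 CPM in TKO_40h, 189, 134 and 161 CPM in TKO_48h and 203, 116 and 130 CPM in TKO_96h. Its log2 fold change between TKO_96h and TKO_40h was 0.06 ± 0.16 (95% interval -0.31 to 0.43), an interval that lies below that of Rpl39l (1.04 to 3.03). Its TKO_96h libraries lay on both sides of the TKO_40h libraries. In TPM, Rpl39 averaged 202 and Rpl39l 9.66 over the 12 libraries.

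The 250 bases upstream of the start of Rpl39l are shown to describe their CG content. They are RefSeq sequence on GRCm38.p6, chromosome 16, 10169978 to 10170227, plus strand, with CG in capitals.
Rpl39l: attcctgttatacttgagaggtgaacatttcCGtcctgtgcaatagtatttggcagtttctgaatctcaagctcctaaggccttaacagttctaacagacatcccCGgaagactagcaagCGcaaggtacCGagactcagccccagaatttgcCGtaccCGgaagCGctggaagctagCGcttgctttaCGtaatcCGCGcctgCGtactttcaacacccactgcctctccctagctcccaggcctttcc
The stretch holds 12 CG pairs, and 33.5% of all promoter entries hold as many or more in the same window. The median over the 71 entries of ribosomal protein genes was 18 and over all entries 6. Methylation was not measured in these libraries, and its part in the level of Rpl39l was not tested. The differences called at 96 h were between groups of the same TKO line.

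The other paralogues of the set, Rpl3l and Rps27l, were not called in any comparison. Rpl3l was at 1.74 to 5.67 CPM in WT_40h, 2.33 to 4.15 CPM in TKO_40h, 4.41 to 5.15 CPM in TKO_48h and 2.24 to 3.47 CPM in TKO_96h, with log2 fold changes from -0.78 to 0.5 and edgeR adjusted p of at least 0.33. Rps27l, known as a target of p53, was at 69.5 to 80.9, 64.5 to 78.8, 51.7 to 83.5 and 71.1 to 108 CPM in the same order, with its highest value in TKO_96h replicate 1. Rps27, its partner, ranged from 132 to 276 CPM, again highest in that library. Of the words of Rps27, 98.7% also occur in another coding gene, and Rps27rt, the retrotransposed copy, had no more than 0.465 CPM in any library.

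The 5S ribonucleoprotein joins 5S ribosomal RNA with Rpl5 and Rpl11, which are also known to bind Mdm2 when ribosome assembly fails. Rpl11 was at 316, 324 and 339 CPM in WT_40h, 347, 364 and 309 CPM in TKO_40h, 424, 264 and 346 CPM in TKO_48h and 454, 305 and 283 CPM in TKO_96h, and its groups overlapped in all 4 comparisons. Rpl5 was at 91.1 to 117 CPM in TKO_40h and 65.6 to 96.4 CPM in TKO_48h (-0.31 ± 0.14, edgeR adjusted p = 0.22), a difference of 0.07 with its pseudogenes pooled and of -0.17 without TKO_48h replicate 3. The stalk, which recruits translation factors, is made of Rplp0, Rplp1 and Rplp2. Rplp0 was at 385, 372 and 332 CPM in TKO_40h and 324, 322 and 312 CPM in TKO_96h, below without overlap (-0.18 ± 0.13, edgeR adjusted p = 0.41). Rplp1 and Rplp2 differed by 0.15 ± 0.17 and 0.03 ± 0.13 in the same comparison (edgeR adjusted p = 0.63 and 0.91), and their groups overlapped.

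Other genes near a call at 96 h were Rpl21, Rps6, Rpl12 and Rpl34. Rpl21 was at 623, 556 and 598 CPM in TKO_40h and 1162, 696 and 602 CPM in TKO_96h (0.47 ± 0.17, edgeR adjusted p = 0.08), and without TKO_96h replicate 1 the difference was 0.13 (adjusted p = 0.59). Rps6, the substrate of the S6 kinases, was at 842, 838 and 826 CPM in TKO_40h and 823, 586 and 669 CPM in TKO_96h, below without overlap (-0.27 ± 0.14, edgeR adjusted p = 0.24). Its difference was -0.41 without TKO_96h replicate 1, -0.16 without TKO_96h replicate 2 and -0.05 with pseudogenes pooled. Rpl12 was at 64.6 to 75.2 CPM in TKO_40h and 72.8 to 102 CPM in TKO_96h (0.28 ± 0.15, edgeR adjusted p = 0.24), a difference of 0.1 without TKO_96h replicate 1 and of 0 with pseudogenes pooled. Rpl34 was at 42.8 to 59.6 CPM in TKO_48h and 56.7 to 85.2 CPM in TKO_96h (0.45 ± 0.17, edgeR adjusted p = 0.079), a difference of 0.23 without TKO_96h replicate 1 and of 0.06 with pseudogenes pooled. Rps15, near a call at 48 h, was at 317 to 358 CPM in TKO_40h and 332 to 504 CPM in TKO_48h (0.26 ± 0.15, edgeR adjusted p = 0.36), a difference of 0.08 without TKO_48h replicate 1.

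The direction of the whole group at 96 h turned with single libraries. Without TKO_96h replicate 1, the median log2 fold change of the 79 genes was -0.18 against TKO_40h, with 13 above 0, and -0.19 against TKO_48h, with 18 above 0. Against TKO_48h, 14 genes were then called, 13 of them lower (7.96% of all genes tested in that fit), including Rpsa (-0.45, edgeR adjusted p = 0.01), Rps19 (-0.43, 0.014) and Rps10 (-0.49, 0.036), with Rpl39l still higher. Without TKO_48h replicate 2 the median against TKO_48h also turned, to -0.07 with 30 above 0, and 10 genes were called, 8 of them lower (8.9% of all genes tested in that fit). Against TKO_40h, without TKO_96h replicate 1, Rps19 was called lower (-0.37, adjusted p = 0.05 after rounding) beside Rpl39l. The summed share was 4.75 ± 1% in TKO_96h (mean ± SD, n = 3) and differed by 0.13 points from TKO_40h (exact permutation p = 1) and by -0.06 points from TKO_48h (exact permutation p = 0.8). Without TKO_96h replicate 1 the difference from TKO_40h was -0.45 points, and both remaining libraries lay below all 3 of TKO_40h (exact permutation p = 0.1, the smallest that 2 against 3 allow).

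The medians of the subunits lay close together. The median log2 fold changes of large and small subunit genes were 0.08 and 0.11 between TKO_40h and WT_40h, 0.04 and 0 between TKO_48h and TKO_40h, 0.1 and 0.02 between TKO_96h and TKO_40h, and 0.07 and 0.03 between TKO_96h and TKO_48h. The median SE was 0.15 in each comparison, because the fit shares its estimate of the spread over all groups. The median log2 SD between replicates was 0.07 and 0.08 in WT_40h and TKO_40h, but 0.26 and 0.36 in TKO_48h and TKO_96h. Intervals from the shared spread can thus be too narrow at 48 and 96 h of priming, and too wide at 40 h. In each of the 4 comparisons the 95% interval of 77 of the 79 log2 fold changes lay within a 2-fold change in either direction, the exceptions being Rpl39l and Rpl3l. It lay within 1.5-fold for 70, 69, 63 and 58 genes in the order of the comparisons above.

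Genes that act in making ribosomes were counted from lists. Of 98 tested genes in lists for ribosomal RNA synthesis (20), small subunit assembly (38) and large subunit assembly (40), 61 were called higher in TKO_96h than in TKO_48h (8.82% of all genes tested) and none lower (10.7%), with a median log2 fold change of 0.42 and 97 above 0. Against TKO_40h, 23 were called higher (4.94% of all genes) and 0 lower (7.2%), with a median of 0.24 and 86 above 0. Without TKO_48h replicate 1 and TKO_96h replicate 1 these counts were 63 and 22, and with each library left out in turn 44 to 66 and 12 to 29, with the lowest of the latter, 12, without TKO_40h replicate 3, 13 without replicate 1 of that group and 15 without TKO_96h replicate 1. With an effective length offset they were 44 and 6 (4.28 and 1.76% of all genes tested in that fit). Between TKO_48h and TKO_40h 7 of the 98 were called lower (2.92% of all genes) and 0 higher. Between TKO_40h and WT_40h 2, Nop56 and Utp6, were called higher, a share near the 1.62% of all genes. The 7 became 2 or 3 without any 1 of the TKO_40h libraries or TKO_48h replicate 3, and 20 without TKO_48h replicate 1 and TKO_96h replicate 1. The 2 became 0 without any 1 of the 6 libraries compared. A test of the difference between these lists and the ribosomal protein genes was not made.

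**Figure D5:**
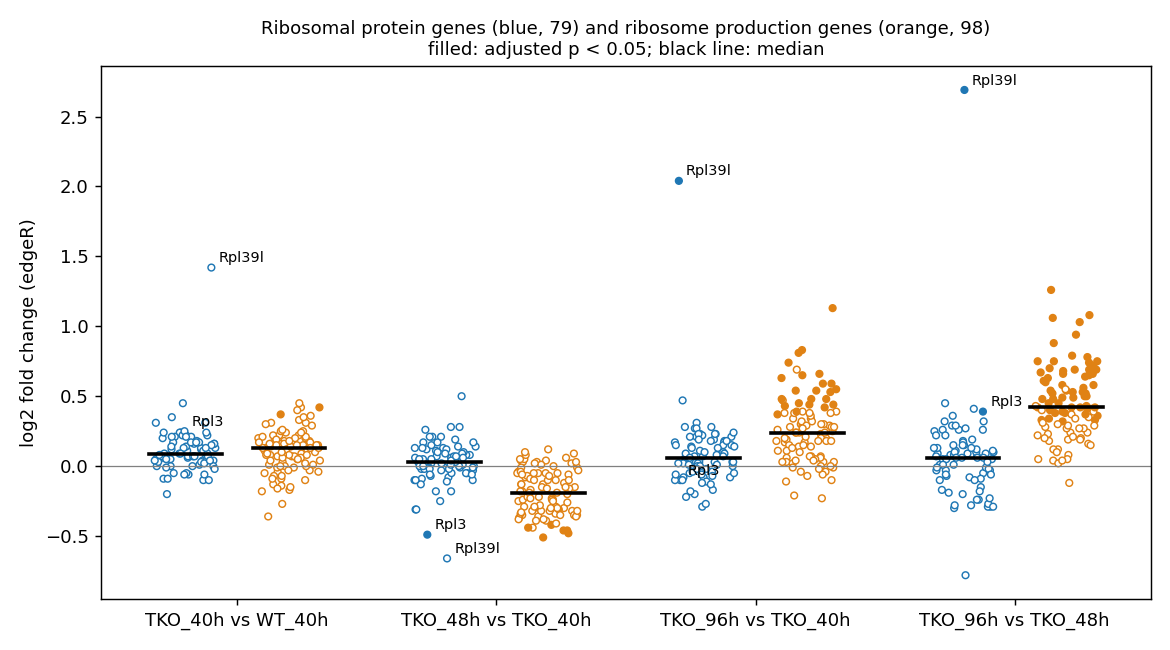
Log2 fold change (edgeR) of the 79 ribosomal protein genes (blue) and the 98 ribosome production genes (orange) in the 4 comparisons, 1 point per gene, filled where the adjusted p was below 0.05, with the median as a black line. The medians of the blue points stay between 0.03 and 0.09, and those of the orange points run from -0.19 (TKO_48h vs TKO_40h) to 0.42 (TKO_96h vs TKO_48h).

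Among the RNA polymerase I genes, Ubtf, which opens ribosomal DNA for transcription, was at 347 ± 14.9 CPM in TKO_96h, 214 ± 26.6 in TKO_48h and 231 ± 19.9 in TKO_40h (mean ± SD, n = 3), with log2 fold changes of 0.69 ± 0.11 and 0.59 ± 0.11 (edgeR adjusted p = 0.00012 and 0.00093). Taf1d, of the promoter selectivity complex, was at 604 ± 124 against 315 ± 18.8 CPM in TKO_48h (0.94 ± 0.12, edgeR adjusted p = 2.1e-05). Pno1, needed for small subunit maturation, was at 100 ± 11.8 against 49.2 ± 3.37 CPM (1.03 ± 0.13, edgeR adjusted p = 1.7e-05), and Nop16, a nucleolar protein of the large subunit pathway, at 65.6 ± 4.64 against 27.4 ± 9.01 CPM (1.26 ± 0.2, edgeR adjusted p = 0.00018). Those called lower at 48 h included Gnl3 (nucleostemin, -0.51 ± 0.09, edgeR adjusted p = 0.0038 against TKO_40h) and the box C/D protein gene Nop58 (-0.42 ± 0.1, 0.015), the latter not called without TKO_40h replicate 1 or 3 or TKO_48h replicate 3 (adjusted p = 0.062 to 0.091).

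A list of translation factors with TOP mRNAs, which also holds other genes with such mRNAs, had 25 tested genes. Of these, 3 were called higher and 1 lower in TKO_96h against TKO_40h (4.94 and 7.2% of all genes). Against TKO_48h 5 were called higher and 3 lower (8.82 and 10.7%), with none called in the other 2 comparisons. Eef2, the elongation factor for translocation, fell from 3109 ± 75.2 CPM in TKO_40h to 1984 ± 145 CPM in TKO_96h (-0.65 ± 0.1, edgeR adjusted p = 0.00034), and Nap1l1, a histone chaperone with a TOP mRNA, rose from 752 ± 16.2 to 1005 ± 41.3 CPM (0.42 ± 0.09, edgeR adjusted p = 0.0033). Of 18 growth control genes, 1 was called lower between TKO_40h and WT_40h (1.48% of all genes) and 1 higher between TKO_48h and TKO_40h (2.57%). In TKO_96h 1 was called higher and 2 lower against TKO_40h (4.94 and 7.2%), with 9 above 0. Against TKO_48h 1 was called higher and 3 lower (8.82 and 10.7%). Mycn was called lower in TKO_40h than in WT_40h (113 ± 1.21 against 159 ± 11.1 CPM, -0.49 ± 0.12, edgeR adjusted p = 0.026), a call lost without any 1 of the 6 libraries compared (adjusted p = 0.064 to 0.13). Ddit4, an inhibitor of mTORC1 signalling, was at 20.3 ± 4.55 CPM in TKO_96h and 87.7 ± 6.91 CPM in TKO_40h (-2.11 ± 0.18, edgeR adjusted p = 1.1e-07). Larp1, which binds TOP mRNAs, was at 348 ± 51 against 473 ± 19.2 CPM (-0.44 ± 0.11, edgeR adjusted p = 0.01) and Myc at 34.3 ± 7.37 against 21.4 ± 4.02 CPM (0.68 ± 0.21, edgeR adjusted p = 0.041). The call of Larp1 was lost without TKO_40h replicate 2 (adjusted p = 0.051) and that of Myc in 6 of the 12 fits that leave out 1 library (adjusted p = 0.051 to 0.19). Ddit4 was called higher in TKO_48h than in TKO_40h (0.73 ± 0.16, edgeR adjusted p = 0.012). Mtor was called lower in TKO_96h than in TKO_48h (-0.38 ± 0.11, edgeR adjusted p = 0.016). These 2 calls were lost in 3 and 2 of the same 12 fits (adjusted p = 0.06 to 0.063 and 0.062 to 0.071).

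Of the 8 ribosomal protein genes and paralogues outside the rule, 7 were tested, and of these 1 was called at 96 h against TKO_40h and 2 against TKO_48h, all higher. Rps3a1 was at 125 to 191 CPM, Fau at 248 to 526 and Rack1 (a scaffold on the small subunit) at 784 to 1205 CPM over the 12 libraries, and none of them was called. Rpl7l1, a paralogue of Rpl7 with a role in large subunit assembly, was at 182, 183 and 166 CPM in TKO_40h and 276, 237 and 219 CPM in TKO_96h, a rise without overlap (0.46 ± 0.13, edgeR adjusted p = 0.021). Against TKO_48h its rise was 0.57 ± 0.13 (edgeR adjusted p = 0.0036). The first of these calls was lost without TKO_40h replicate 1 or 3 or TKO_96h replicate 1 (adjusted p = 0.051 to 0.11). Rpl36al was called higher in TKO_96h than in TKO_48h, at 214, 142 and 156 against 136, 103 and 137 CPM (0.44 ± 0.15, edgeR adjusted p = 0.048), a call lost in 7 of the 12 fits that leave out 1 library (adjusted p = 0.056 to 0.3, highest without TKO_96h replicate 1). Rpl22l1, the paralogue of Rpl22, was at 57.8 CPM in TKO_96h replicate 1 and at 18.5 and 18.2 CPM in replicates 2 and 3, against 42.3 to 48.4 CPM in TKO_40h.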

How the data were processed

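The authors deposited, per library, estimated counts and TPM for 119414 transcripts, with lengths and effective lengths. The submitters' processing notes name Trim Galore 0.6.2 for trimming, kallisto for quantification and the GRCm38 (mm10) build. Its version and transcript set are not given in these sources. Of the transcripts, 97.8% were matched by Ensembl ID to GENCODE M21, and the deposited estimated counts of a gene's transcripts were added up and rounded. Unmatched transcripts held 2.68 to 4.32% of the counts. Depth was 6570180 to 9114128 counts per library, and PCR copies were not marked.

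The filter was filterByExpr (minimum count 10 and minimum total 15, by group), and genes were tested with edgeR 4.0.16 (TMM factors 0.927 to 1.063, quasi-likelihood F-test, all 12 libraries, Benjamini-Hochberg over 16178 genes, call at 0.05). Standard errors are the absolute log2 fold change over the square root of F, and 95% intervals use 8 residual degrees of freedom. CPM use TMM library sizes, and deviations a pseudocount of 0.5 CPM. The summed share was tested with exact permutation. Pseudogenes were pooled with a gene when they shared at least 10% of their 31-base words with it. The procedure was tested on simulated counts. These were drawn gene by gene, without shifts shared across a library or a spread that differs between groups. They therefore do not test how it handles libraries that stand apart. The labels call the replicates biological, and the edgeR p-values set differences between groups against the spread between replicates, estimated in the main fit over all 12 libraries.

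Genes named are those called or the 4 with the smallest p in a comparison, the 3 highest and lowest TPM, paralogues, the 5S and stalk genes and up to 3 called genes of each list, and the ribosomal protein genes outside the rule, with Rps3a1 and other genes that libraries turned on chosen after their values were seen. The genes and lists were chosen with earlier results of these data known. Alternatives were RLE size factors, TMM without the 79 genes, DESeq2 1.42.0, no filter, a robust fit, an effective length offset, only the groups compared, a replicate block, protein-coding genes alone, pooled pseudogenes and each library left out, and, chosen after seeing the data, coding transcripts only and 2 libraries left out together. R 4.3.3, Python 3.11.15 and scipy 1.17.1 were used. Other days of the differentiation are not analysed here. Values of a few single genes are not reported here.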

Additional observations from a re-analysis of the deposited data

How the results depend on the processing

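With each library left out in turn, the count of called ribosomal protein genes stayed at 0 between TKO_40h and WT_40h and ran from 0 to 2 between TKO_48h and TKO_40h, from 1 to 2 between TKO_96h and TKO_40h and from 1 to 14 between TKO_96h and TKO_48h. The 2 between TKO_48h and TKO_40h, 1 higher and 1 lower, came without TKO_48h replicate 2 (2.73 and 3.85% of all genes tested). The 14, of which 1 was higher and 13 lower, came without TKO_96h replicate 1 (5.95 and 7.96% of all genes tested). In the order of these 4 comparisons the counts were 3, 2, 11 and 5 without TKO_48h replicate 1 and TKO_96h replicate 1 together, an alternative added after seeing the data. The 3 were higher (2.86% of all genes tested in that fit) and the 2 lower (3.06%). Of the 11, 10 were lower (6.02%) and 1, Rpl39l, higher (4.64%). Of the 5, 4 were lower (7.51%) and 1, again Rpl39l, higher (7.44%). With only the groups compared, 12 genes were called between TKO_40h and WT_40h, all higher (4.66% of all genes tested). Between TKO_96h and TKO_48h 1, Rpl39l, was called, higher (6.06%). With no filter on low counts there were 2 between TKO_40h and WT_40h, 2 between TKO_96h and TKO_40h and 7 between TKO_96h and TKO_48h. All of these were higher, where 1.61, 3.83 and 6.09% of all genes tested were called higher. An effective length offset left 0 between TKO_48h and TKO_40h (0.513% of all genes tested called higher and 0.742% lower). It left 1 between TKO_96h and TKO_48h, higher (4.28%). Pooling pseudogenes left 0 between TKO_48h and TKO_40h (2.61% of all genes tested called higher and 2.98% lower). Counting coding transcripts only, added later, also left 0 there (1.35 and 1.43%). Protein-coding genes alone gave 2 between TKO_96h and TKO_40h, higher, where 6.33% of all genes tested were called higher. Over 24 alternatives the median log2 fold changes ran from 0.07 to 0.12, -0.1 to 0.16, -0.18 to 0.2 and -0.19 to 0.2 in the same order, and the sign turned in the last 3 comparisons where TKO_48h replicate 1 (between TKO_48h and TKO_40h), TKO_96h replicate 1 (in both at 96 h) or TKO_48h replicate 2 (between TKO_96h and TKO_48h) was left out.

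The difference in the summed share between TKO_48h and TKO_40h turned to -0.97 points on deposited TPM and to -0.06 without TKO_48h replicate 1, and that between TKO_96h and TKO_40h to -0.45 without TKO_96h replicate 1. Between TKO_96h and TKO_48h it turned to 1.1 points on TPM. Gm12895 and Gm12896 held 28.2 to 43.9% of TPM. Between TKO_40h and WT_40h the difference was 0.19 to 0.3 points with each library left out and 0.67 on TPM. With each library left out in turn the other 3 ran from -0.06 to 0.48, from -0.45 to 0.42 and from -0.64 to 0.24 points. The fold between the 90th and 10th percentile of TPM fell to 4.26 with pseudogenes pooled. Of the genes named, pooling turned Rpl3 (0.13 and -0.37), Rpl5 (0.07), Rps7 (0.03) and Rpl12 (0), and coding transcripts turned Rpl3 to 3.22 between TKO_48h and TKO_40h and to -3.4 between TKO_96h and TKO_48h. In all, 352 of 384 alternative values for 16 results on single genes kept direction and side of the threshold. Most of these results were not called, and many alternatives left the compared libraries unchanged, so this count does not measure how well the calls held. Of 24 alternatives each, the calls of Rpl3 were kept in 19 against TKO_40h and 17 against TKO_96h, and those of Rpl39l at 96 h in all 24. The cause of these changes was not tested, apart from the counts that pooling adds.

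The labels give the groups the same replicate numbers, but these did not pair the libraries: deviations of same-numbered libraries correlated at -0.061 to 0.058 over 18 pairs, and 5 of 12 libraries correlated best with their own number. With the replicate block, 1 gene, Rpl39l, was called higher between TKO_40h and WT_40h (1.69% of all genes tested). Between TKO_48h and TKO_40h 1 was called lower (3.07%). In TKO_96h 2 were called higher against TKO_40h (5.23%) and 2 against TKO_48h (9.19%). Depth limits Rpl3l and Rpl39l, which had as few as 13 and 7 counts in a library, while the other 77 genes had at least 301.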
